A study of Mus musculus with 11 samples.

Results

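The complement system was examined in the choroid plexus (CP) of mice with experimental autoimmune encephalomyelitis (EAE), through 9 genes chosen by name: the C1q chains C1qa, C1qb and C1qc, the components C2, C3, C4b and Cfb, the C1 inhibitor gene Serping1 and the receptor gene C3ar1. Of these 9, 8 had at least 1 probe carrying their symbol, together 11 of the array's probes, among 15943 genes in all. C3 had no probe of that symbol and was not analysed here. The 9 genes were chosen with earlier results of these data known. The shares of all genes set beside them below are therefore descriptions and not independent support. The array measured 11 pools: 3 PBS (control), 3 onset, 3 remission and 2 relapse pools. Each sample pooled the CP of several perfused female SJL mice that were 6 to 8 weeks old. The EAE groups had been immunized with a peptide of myelin proteolipid protein in complete Freund's adjuvant and given pertussis toxin. Control mice received PBS in the same adjuvant, and pertussis toxin on the same schedule, so that adjuvant and toxin were common to all 4 groups. Control pools were collected together with the onset pools, whereas the remission and relapse pools were taken later, so phase and time of collection cannot be told apart in those comparisons. All pools came from 1 experiment, and the p-values below measure the spread between these pools.

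Complement is a cascade of proteases of the blood and tissue fluids. In the classical pathway C1q, built from the A, B and C chains and made largely by macrophages in most tissues, binds antibody or damaged cells, and its proteases then cut C4 and C2, whose fragments join into the enzyme that splits C3. In the alternative pathway factor B, encoded by Cfb, takes the place of C2. C1 inhibitor blocks the proteases of the C1 complex, and a set of soluble and membrane-bound regulators holds both pathways in check. The CP forms the barrier between blood and cerebrospinal fluid, and its stroma holds macrophages and blood vessels beneath the epithelium that secretes the fluid.

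Some of these genes are neighbours in the mouse genome. In the RefSeq annotation C1qb, C1qc and C1qa follow one another on chromosome 4 with no other protein-coding gene between them, Cfb and C2 stand side by side on chromosome 17, and C4b lies a few genes away from that pair, in the major histocompatibility complex. Promoter sequences of RefSeq (build GRCm38.p6) were at hand for 4 of the 9 members, C1qb, C1qc, C3 and C3ar1. The promoters of C1qb and C1qc are shown because both genes belong to the C1q cluster, with a Pearson r of 0.87 (Spearman 0.75) between their signals over the 11 pools and 0.48 after the group means were taken off. Each run below holds the 250 bases before the start of the gene, 5′ to 3′ on the gene's own strand, with motif matches in capitals.
C1qb, chr4:136886201-136886450, minus strand: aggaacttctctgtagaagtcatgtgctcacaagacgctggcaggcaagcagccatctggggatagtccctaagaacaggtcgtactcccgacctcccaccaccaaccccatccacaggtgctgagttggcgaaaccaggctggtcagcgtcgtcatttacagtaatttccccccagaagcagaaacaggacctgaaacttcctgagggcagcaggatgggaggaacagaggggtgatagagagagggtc
C1qc, chr4:136892915-136893164, minus strand: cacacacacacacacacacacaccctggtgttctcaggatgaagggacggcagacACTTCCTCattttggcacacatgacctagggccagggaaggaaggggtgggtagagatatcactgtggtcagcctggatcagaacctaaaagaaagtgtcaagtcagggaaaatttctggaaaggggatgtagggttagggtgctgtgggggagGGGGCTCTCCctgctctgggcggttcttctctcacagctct
The motifs searched on both strands were the STAT site TTCNNNGAA, the interferon-stimulated response element, the NF-kB consensus, the C/EBP site TTGCNNAA and the PU.1 site GAGGAAGT. C1qc held a PU.1 match, read on the opposite strand, and an NF-kB match closer to the start, and C1qb held none of the 5 motifs in this window. Of all 32841 promoters of the same length, 2.44% held the PU.1 letters, 5% the NF-kB consensus, 7.02% the STAT site, 2.98% the interferon element and 9.57% the C/EBP site. A match of letters is a description of the sequence and is not a measured binding site.

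Values below are log2 signals after quantile normalization, and a probe counted as above background where its detection p-value was under 0.01. The C1q genes, C2 and Serping1 were above background in 11 of 11 pools, C4b in 10 and Cfb in 8, whereas C3ar1 was above background in 0. Between 8687 and 10221 probes were above background in each pool. The CP identity of the tissue was checked by its epithelial markers, of which 7 of the 11 listed were measured and all 7 were above background in every pool. Of these, 0 were called in any phase against PBS, but Ttr, Folr1, Kl, Clic6 and Sostdc1 reached signals next to the highest of the arrays, where a difference could go unseen. Their summed signal was 446300 to 456800 in the PBS pools and 441500 to 458500 in the onset pools. A pair of pools of different groups, onset 3 and remission 3, stood unusually close. Of the 10012 probes detected in each of these 2 pools, 0 had log2 signals further apart than 1, and the corresponding number was 7 to 266 for the remaining 54 pairs. Counts are therefore also given without both of these pools.

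At onset 4 of the 8 measured members, C1qc, C2, Cfb and Serping1, were called higher than in control by limma at an adjusted p under 0.05, 0 were called lower, and C1qa, C1qb, C4b and C3ar1 did not pass the test. Over all 15943 genes 1.37% were called higher and 0.207% lower. The median log2 fold change was 0.57 over the members and -0.02 over all genes. All 3 onset pools lay above all 3 PBS pools for 7 of the 8 members, a pattern seen in 8.13% of all genes. The same 7 members had an unadjusted p under 0.05 in this direction, against 6.26% of all genes, and 0 members had one in the other direction, against 4.63%. Among the 8138 genes above background in at least 1 pool, 858 had all onset pools above all PBS pools. Of these 8138 genes 205 were called higher, and 736 had an unadjusted limma p under 0.05 on the higher side. The largest of the called increases was that of Cfb, which was not above background in any control pool.

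**Figure D1:**
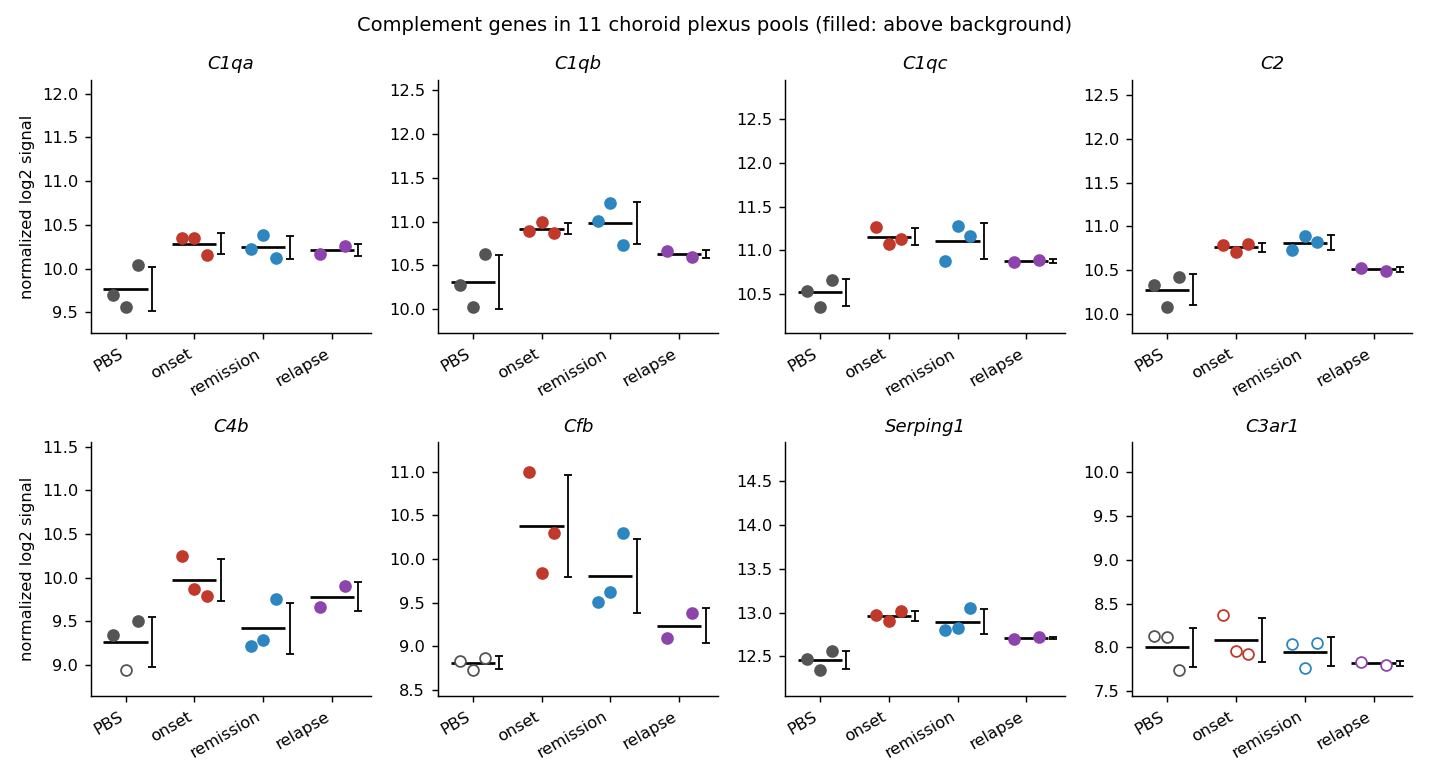
Log2 signal (vertical axis, quantile-normalized) of the 8 measured complement members in each of the 11 pools, grouped by phase, with filled points above background, open points not above background horizontal bars at the group means and whiskers of 1 SD to each side. For 7 members the onset points all lie above the PBS points, and the C3ar1 points are open throughout.

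C1qa encodes the A chain of C1q. Its log2 signal was 9.70, 9.56 and 10.04 in the PBS pools, 10.35, 10.35 and 10.15 at onset, 10.22, 10.39 and 10.12 in remission and 10.16 and 10.26 in relapse. Every EAE pool of C1qa lay above every control pool, with PBS 3 the nearest of the controls. Against PBS the log2 difference was 0.52 (SE 0.12) at onset, 0.48 (SE 0.12) in remission and 0.45 (SE 0.13) in relapse, and none passed the test, with adjusted p-values from limma of 0.0578, 0.199 and 0.687. The 3 comparisons share the PBS pools, so a low or high control pool moves all of them together.

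C1qb, for the B chain, had log2 signals of 10.28, 10.02 and 10.63 in PBS, 10.89, 10.99 and 10.87 at onset, 11.01, 11.21 and 10.74 in remission and 10.66 and 10.60 in relapse. The onset and remission pools lay above all controls, but relapse 2 fell just under PBS 3, so that the relapse and PBS pools overlapped. The differences from PBS of 0.61 (SE 0.14) at onset and 0.68 (SE 0.14) in remission did not pass the test (limma, adjusted p = 0.0652 and 0.105), nor did that of 0.32 (SE 0.16) in relapse (adjusted p = 0.887).

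C1qc, for the C chain, was the C1q gene that passed the test. It gave 10.54, 10.35 and 10.66 in PBS, 11.26, 11.07 and 11.13 at onset, 10.88, 11.28 and 11.16 in remission and 10.86 and 10.89 in relapse, and no EAE pool overlapped the controls. C1qc rose at onset by 0.64 (SE 0.11, limma adjusted p = 0.0164), a 1.55-fold increase. In remission the difference was 0.59 (SE 0.11, adjusted p = 0.0599) and in relapse 0.36 (SE 0.12, adjusted p = 0.816). The log2 differences of the 3 chains at onset ranged from 0.52 to 0.64, and that C1qc passed the threshold while C1qa and C1qb did not was not tested as a difference between the genes.

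C2, whose product is the part of the classical C3-splitting enzyme that carries the protease, was the single member called in 2 phases. Its log2 signal was 10.34, 10.08 and 10.42 in the control pools, 10.78, 10.71 and 10.80 at onset, 10.73, 10.89 and 10.82 in remission and 10.53 and 10.49 in relapse. All EAE pools lay above the controls, the relapse pools least so. At onset C2 rose by 0.48 (SE 0.09, limma adjusted p = 0.0242), a 1.40-fold increase. It also rose in remission, by 0.54 (SE 0.09, adjusted p = 0.0409) or 1.45-fold, a call that was lost in 10 of 16 alternatives (adjusted p 0.00409 to 0.223 from limma), among them the replicate block (0.0756). The relapse difference of 0.23 (SE 0.10) did not pass the test (adjusted p = 0.872).

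C4b encodes C4, the component cut together with C2. Its brightest probe read 9.34, 8.95 and 9.51 in PBS, where the pool at 8.95 was not above background, 10.25, 9.87 and 9.79 at onset, 9.22, 9.29 and 9.76 in remission and 9.67 and 9.90 in relapse. The onset and relapse pools lay above the controls, while remission 1 and 2 lay among them and only remission 3 lay above. None of the differences from PBS passed the test: 0.70 (SE 0.17, limma adjusted p = 0.0811) at onset, 0.15 (SE 0.17, adjusted p = 0.930) in remission and 0.52 (SE 0.19, adjusted p = 0.833) in relapse. Of the other 3 probes of C4b, 2 were above background in no pool. The other (360286) was above background in the onset pools, at 9.01, 9.02 and 8.95, and in remission 3, at 8.89. It was not above background in any PBS or relapse pool.

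C4a, the near-identical neighbour copy of C4b, was measured by 2 probes above background in every pool, and signal of one copy on the probes of the other cannot be told apart here. The brighter C4a probe gave 10.80, 10.16 and 11.04 in PBS, 12.25, 11.59 and 11.72 at onset, 10.79, 10.99 and 11.67 in remission and 11.29 and 11.54 in relapse. Its order of pools resembled that of C4b, with onset above all controls and remission 1 and 2 within their range. C4a rose at onset by 1.19 (SE 0.25, limma adjusted p = 0.0429), a 2.28-fold increase, and its second probe gave 1.10 (SE 0.25, adjusted p = 0.0536). The call of the brighter probe was lost in 9 of 16 alternatives, 5 of them with a single pool left out, and its adjusted p from limma ranged from 0.00320 to 0.175. The brighter probe differed from PBS by 0.49 in remission and by 0.75 in relapse, with adjusted p-values from limma of 0.772 and 0.833.

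**Figure D2:**
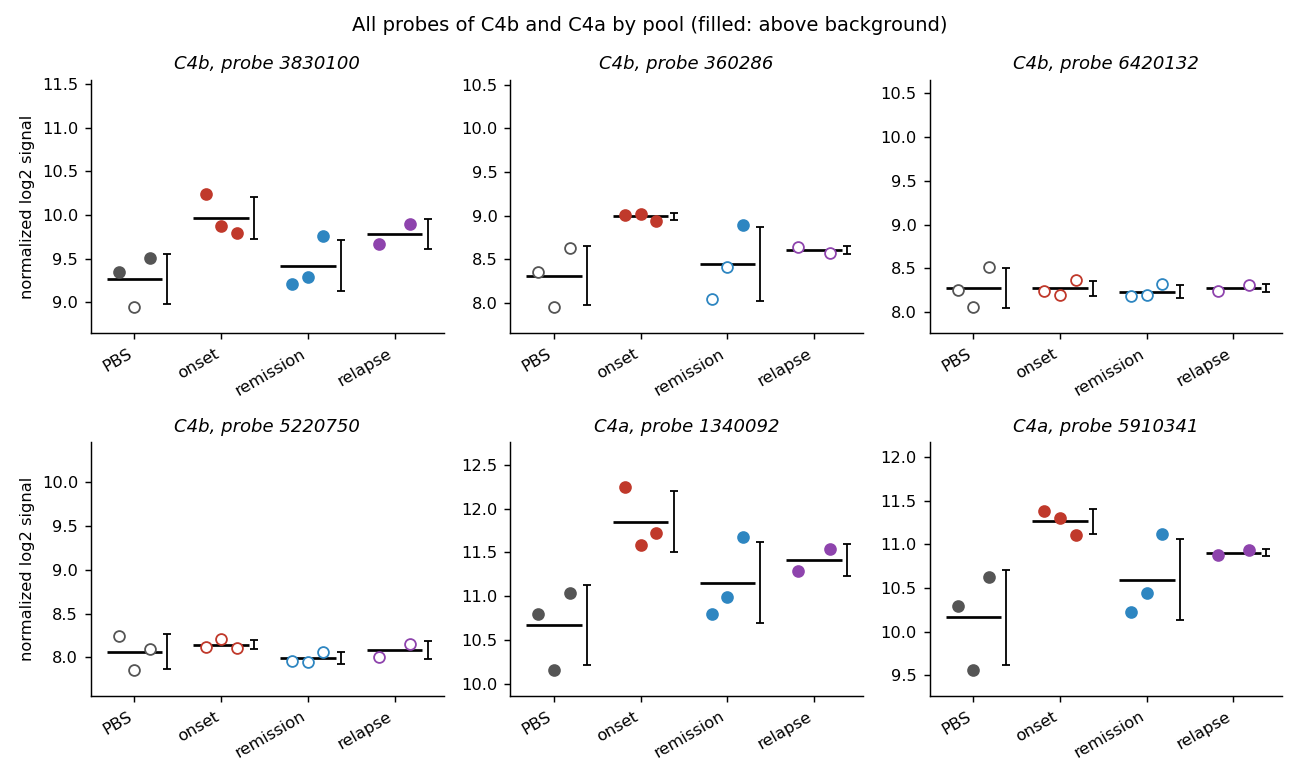
Log2 signal (vertical axis) of the C4b and C4a probes across the 11 pools (horizontal axis, by phase), with filled points above background, open points not above background, bars at the group means and whiskers of 1 SD to each side. The 2 C4a probes and the brightest C4b probe are high in the onset pools, lower in remission 1 and 2, and 2 of the C4b probes have no filled point.

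Cfb, for factor B of the alternative pathway, was the member with the largest fitted difference from PBS at onset and in remission, though not in relapse. It was not above background in any control pool, where it read 8.84, 8.73 and 8.87, and was above background in all 8 EAE pools: 10.99, 9.84 and 10.30 at onset, 9.51, 9.62 and 10.29 in remission and 9.10 and 9.38 in relapse. The detection p-values of the control pools, 0.0133, 0.0242 and 0.0121, lay just over the limit of 0.01, and that of relapse 1 was 0.00726. No EAE pool overlapped the controls, onset 1 was the highest and the relapse pools were the lowest of the EAE pools. Because the control level is only bounded by the background, folds of Cfb are given as lower limits on the ratio of group means. Each is the mean of the bright group over the lowest signal above background on each control array, or the probe's own signal where that was higher. These limits leave out the spread between pools. By this rule Cfb was at least 2.52-fold higher at onset (limma adjusted p = 0.0119). In remission it was at least 1.70-fold higher (adjusted p = 0.202) and in relapse at least 1.14-fold higher (adjusted p = 0.937), neither of which passed the test.

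Serping1 encodes C1 inhibitor, which blocks the proteases of the C1 complex. Its log2 signal was 12.47, 12.35 and 12.56 in PBS, 12.98, 12.90 and 13.01 at onset, 12.81, 12.82 and 13.06 in remission and 12.70 and 12.72 in relapse. All 8 EAE pools were above all 3 controls, and the spread within each group was small. Serping1 rose at onset by 0.51 (SE 0.09, limma adjusted p = 0.0163), a 1.42-fold increase. The remission difference of 0.44 (SE 0.09, adjusted p = 0.0830) and the relapse difference of 0.25 (SE 0.10, adjusted p = 0.833) did not pass the test. C3ar1, the receptor of the C3a fragment, read between 7.74 and 8.37 over the 11 pools, with no pool above background, and no fold is given for it.

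**Figure D3:**
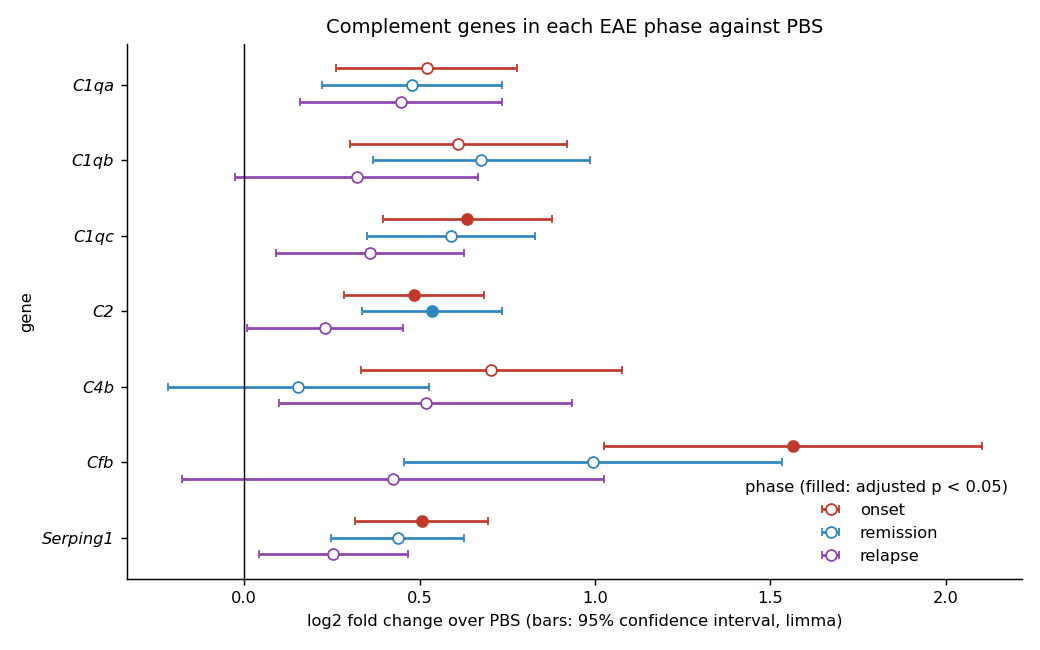
Log2 difference from PBS (horizontal axis) of the members in each phase, with 95% intervals from limma, filled markers for genes called at an adjusted p under 0.05 and open markers for the rest. Cfb, which was not above background in any PBS pool, is drawn at its fitted difference, which is not a bound, and the relapse markers lie left of the onset markers for all members drawn.

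In remission 1 of the 8 measured members was called higher, C2, and 0 lower, where 0.276% of all genes were called higher and 0% lower. All remission pools lay above all PBS pools for 6 members, with C4b and C3ar1 the exceptions, against 6.14% of all genes, and those 6 had an unadjusted p under 0.05, against 4.48% of all genes, with 0 members lower, against 2.95%. The median log2 difference of the members was 0.51. For the relapse phase, with 2 pools, limma called 0 members higher or lower at an adjusted p under 0.05, and 1 of all 15943 genes higher (0.00627%). Both relapse pools lay above all PBS pools for 6 members, against 11.3% of all genes, 5 members had an unadjusted p under 0.05 on the higher side, against 3.78%, and 0 on the lower side, against 2.13%, and the members' median log2 difference was 0.34.

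Compared directly with each other, the phases gave no call among the members: limma called 0 in remission against onset, 0 in relapse against onset and 0 in relapse against remission, where 0%, 0.27% and 0.0439% of all genes were called lower and 0%, 0.0753% and 0% higher. At an unadjusted p under 0.05 the members lower in these 3 comparisons numbered 2, 4 and 2, against 2.34%, 4.75% and 2.95% of all genes, and 0 were higher in each, against 1.85%, 5.61% and 2.87%. Relapse lay below onset in every pool for 6 members, against 12.4% of all genes, 1 of the 6 being C3ar1, which was above background in no pool. The largest such difference was in Cfb, whose relapse pools lay under all onset pools by a mean of -1.14 on the log2 scale (95% interval -1.74 to -0.54, limma adjusted p = 0.118).

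Whether the members differed from each other in the step from onset to remission was not tested. The remission-minus-onset difference was -0.04 (95% interval -0.30 to 0.22) for C1qa, 0.07 (-0.24 to 0.38) for C1qb, -0.05 (-0.29 to 0.19) for C1qc, 0.05 (-0.15 to 0.25) for C2 and -0.07 (-0.26 to 0.12) for Serping1. All remission pools of C4b lay below all onset pools, by -0.55 (-0.92 to -0.18), the single member with such a separation in this comparison, against 4.23% of all genes, and Cfb differed by -0.57 (-1.11 to -0.03) with overlapping pools. Neither passed the test (limma, adjusted p = 1.00 for both). Between relapse and remission C2 differed by -0.30 (-0.53 to -0.08) and C1qb by -0.36 (-0.70 to -0.01), with adjusted p-values from limma of 0.780 and 0.895. Both had their relapse pools below all remission pools, as did 4 members in all, against 11.9% of all genes.

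Across the 11 pools, which fall into 4 groups and share 1 normalization, the members formed pairs of differing likeness. These correlations are descriptions. C1qc and C2 had a Pearson r of 0.96 (Spearman 0.93), C1qa and C1qb 0.92 (0.79) and Cfb and Serping1 0.90 (0.96), while C1qb and C4b had 0.39 (0.12). After the group means were taken off, r was 0.84 for C1qc with C2 and 0.90 for C1qa with C1qb, and it was -0.33 for C1qb with Cfb, which had 0.60 before. C4b kept 0.78 with Cfb and 0.80 with Serping1 in these deviations. The adjacent pair Cfb and C2 had 0.79 over pools and 0.25 in the deviations.

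The genes most like each member, among 7482 genes above background in at least 6 pools, were named by Pearson r over the 11 pools. For C1qa they were Lyz2 (lysozyme of phagocytes, 0.96), H2-Ab1 (MHC class II, 0.95) and Cd3d (T cell receptor complex, 0.95). Nearest to C1qb were Tcf4 (0.95), Moxd1 (0.95) and H2-Eb1 (MHC class II, 0.94), and nearest to C1qc were Was (an actin regulator of blood cells, 0.97), C2 itself (0.96) and Klhl6 (0.96). C2 was most like Axl (a receptor for dying cells, 0.97), Slc6a6 (a taurine transporter, 0.96) and C1qc. C4b followed C4a (0.97), Serpina3n (a protease inhibitor, 0.94) and Ccl19 (a chemokine, 0.92). For Cfb the nearest were Cyp1b1 (0.98), Icam1 (an adhesion molecule for leukocytes, 0.97) and Dram1 (0.97), and for Serping1 Rhob (0.98), Ndrg1 (0.97) and Irak3 (0.97).

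Of 48 other complement genes listed, 41 had a probe and 15 of these were above background in at least 1 pool. At onset 2 of the 41 were called higher, C4a and Cd93, and 0 lower, where 1.37% and 0.207% of all genes were. The list's median log2 difference was 0.06. At an unadjusted p under 0.05 the list held 4 higher and 4 lower at onset, where 6.26% and 4.63% of all genes were. Of the 15 above background in at least 1 pool, 3 were higher and 2 lower, so the equal numbers include genes never above background. In remission and relapse limma called 0 of the 41, where 0.276% and 0.00627% of all genes were called higher and 0% lower in each. At an unadjusted p under 0.05 there were 2 higher and 1 lower in remission (all genes 4.48% and 2.95%). In relapse there was 1 of each (all genes 3.78% and 2.13%), and the medians of the 2 phases were 0.04 and 0.03. Cfd and Cfp of the alternative pathway and the terminal component C7 had no probe of that symbol and were not analysed here.

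Cd93, a surface protein first described as a C1q receptor and found on endothelial and myeloid cells, gave 10.24, 9.88 and 10.19 in PBS, 10.82, 10.53 and 10.80 at onset, 10.53, 10.72 and 10.71 in remission and 9.84 and 10.07 in relapse. The onset and remission pools lay above all controls, and the relapse pools lay within or below them. Cd93 rose at onset by 0.62 (SE 0.12, limma adjusted p = 0.0238), was 0.55 above PBS in remission (SE 0.12, adjusted p = 0.105) and was -0.15 from PBS in relapse (SE 0.13, adjusted p = 0.956). It was lower in relapse than at onset by -0.77 (SE 0.13, adjusted p = 0.0363), the single complement gene of the 41 with a call in relapse against onset. Of all genes 0.27% were called lower in that comparison. The onset call of Cd93 was lost in 7 of 16 alternatives, including neqc and the fits without PBS 1, PBS 2, onset 1 or onset 3, with adjusted p-values from limma of 0.00148 to 0.123.

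Cfi, for factor I, the protease that inactivates C3b and C4b, was picked out after its values were seen. It was above background in the onset pools, at 9.74, 9.54 and 9.44, and in remission 3, at 9.42, and in no other pool. By the rule used for Cfb, which leaves out the spread between pools, it was at least 1.44-fold higher at onset than in PBS. It did not pass the test (limma, adjusted p = 0.0527). This call turned on the setting: Cfi was called in 7 of 16 alternatives, among them the fit with the replicate number as a block (adjusted p = 0.0312), with a range of 0.00271 to 0.207 over all of them. The remaining pools of Cfi lay between 8.36 and 8.96.

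The C1 proteases C1ra, C1s1 and C1s2 were above background in 0 pools. So were the lectin pathway genes Mbl1, Mbl2, Fcna, Fcnb, Masp1, Colec10 and Colec11. Masp2, the protease of that pathway, was above background in 9 pools and differed from PBS at onset by -0.21 (SE 0.09, limma adjusted p = 0.471). Among the terminal components, which build the membrane pore, C8b and C8g were above background in 11 and 7 pools, with onset differences of -0.40 (SE 0.33, adjusted p = 0.796) and 0.16 (SE 0.10, adjusted p = 0.674). Hc, C6, C8a and C9 were above background in none.

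Of 8 membrane regulators measured, 5 were above background in at least 1 pool. At onset 0 of the 8 were called by limma, where 1.37% of all genes were called higher and 0.207% lower. At an unadjusted p under 0.05, 2 were lower, Cd59b and Cd46, against 4.63% of all genes, Cd46 being above background in no pool. Cd55, which speeds the decay of the C3-splitting enzymes, differed at onset by 0.02 (SE 0.08, limma adjusted p = 0.982). Cd59a and Cd59b, near copies that block pore assembly, differed by -0.24 (SE 0.13, adjusted p = 0.642) and by -0.21 (SE 0.08, adjusted p of 0.357). All onset pools of Cd59b lay below all controls, whereas those of Cd59a overlapped them. Of the genes that the list used here classed with the soluble regulators, C1qbp differed by 0.00 (SE 0.12), Cpn1 by -0.12 (SE 0.11) and Vtn (vitronectin) by 0.21 (SE 0.11). None of these passed the test (limma, adjusted p = 1.00, 0.846 and 0.565). Clu (clusterin) differed by 0.02 (SE 0.07, adjusted p = 0.974), but its deposited signals of 69677 to 72274 lay next to the highest signal of the arrays, 72276 to 73229, where a difference could go unseen. Itgb2 and Itgax, subunits of the receptors for cleaved C3, and the C5a receptors C5ar1 and C5ar2 were above background in no pool.

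**Figure D4:**
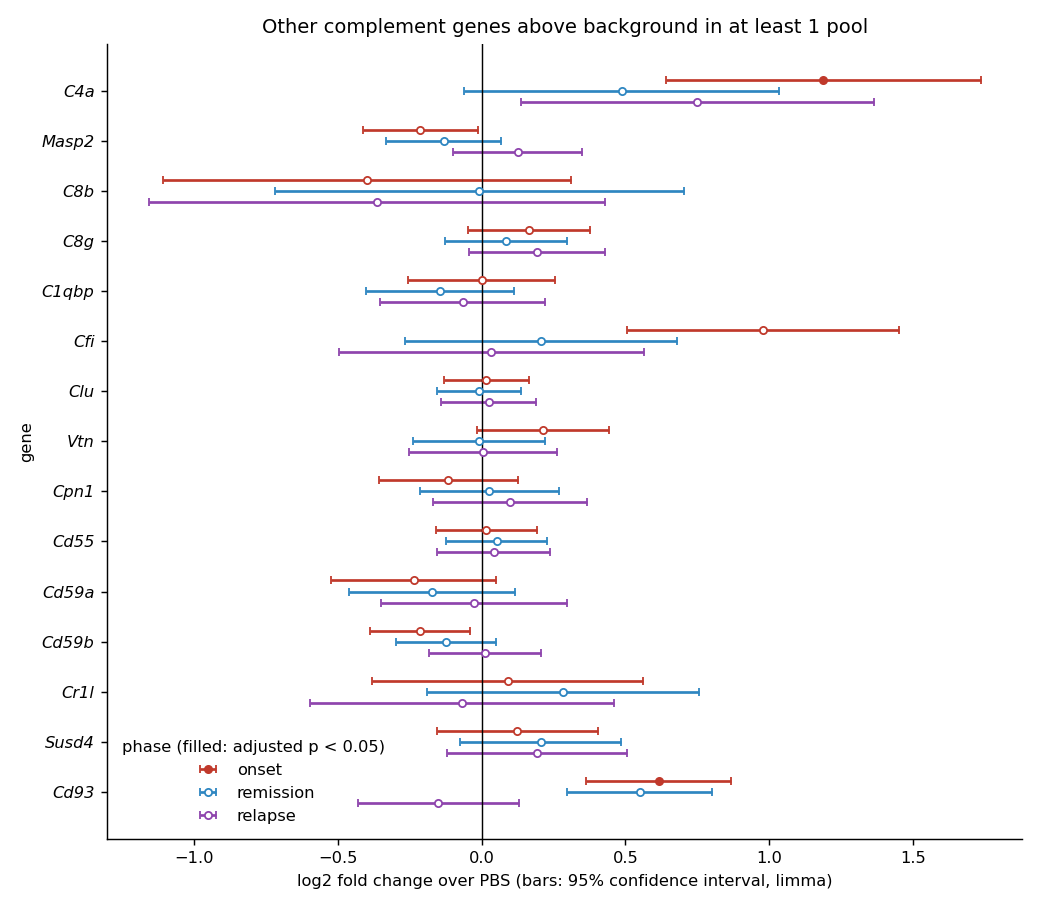
Log2 difference from PBS (horizontal axis, with 95% intervals from limma) of the other complement genes above background in at least 1 pool, by phase, with filled markers for called genes. C4a and Cd93 at onset carry the filled markers, and Cfi, not above background in any PBS pool, is drawn at its fitted difference, which is not a bound.

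Summed markers of several other cell types differed between the same groups of pools. Of 16 macrophage markers 14 were measured and 9 were above background in at least 1 pool, whereas Cd163, Lyve1, Ms4a7, Trem2 and Fcer1g were above background in 0. Their summed signal was 7772 to 8248 in PBS, 8310 to 15320 at onset, 11150 to 13260 in remission and 8059 to 8834 in relapse. Among them 0 passed the test at onset and 1 in remission, Mrc1 (0.53, limma adjusted p = 0.0376). Of all genes 1.37% were called higher at onset and 0.276% in remission. In these bulk samples more cells of a type and more RNA per cell cannot be told apart, and the part of macrophages in the C1q and C2 differences was not tested.

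Neutrophil markers, with 9 of the 11 measured above background in at least 1 pool, summed to 3925 to 7791 in PBS and 16520 to 30830 at onset, and 6 of them were called higher at onset. The sums were 8383 to 17180 in remission and 4486 to 4728 in relapse. Beside the calls in this paragraph, 1.37% of all genes were called higher at onset and 0.276% in remission. Endothelial markers, 9 of 10 above background, summed to 13030 to 15910 in PBS, 21650 to 26140 at onset, 21650 to 27150 in remission and 13580 to 14680 in relapse, with 5 called higher at onset and 4 in remission.

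Markers of fibroblasts and mural cells, 9 of 9 above background, summed to 30590 to 36410 in PBS, 46260 to 52950 at onset, 42770 to 47290 in remission and 39410 to 43100 in relapse, with 1 called at onset, Pdgfra. T cell markers, 4 of 7 above background with Cd247, Cd4 and Cd8a in no pool, summed to 1032 to 1479 in PBS, 2116 to 2794 at onset, 2042 to 2420 in remission and 2443 to 2644 in relapse, with 4 called higher at onset and 2 in remission. Monocyte markers, 2 of 6 above background with Ccr2, Itgam, F13a1 and Vcan in no pool, summed to 770.5 to 1122 in PBS, 1660 to 3697 at onset, 1123 to 2170 in remission and 769.9 to 863.9 in relapse, with 1, Chil3, called higher at onset. Of 9 liver genes, which would mark contact with the main source of plasma complement, 8 were above background in 0 pools, and the other, Ttr, is also made by CP epithelium. In markers of brain tissue and blood the relapse pools lay apart from the PBS pools. Neuron markers, 4 of 7 above background, summed to 2223 to 2542 in PBS and 3106 to 3943 in relapse, and oligodendrocyte markers, 4 of 5 above background, to 3960 to 8801 and 10590 to 12210. Astrocyte and ependyma markers, 5 of 8 above background with Gfap in no pool, summed to 7009 to 8610 in PBS and 9048 to 9413 in relapse, and red blood cell markers, 3 of 4 above background, to 3459 to 17330 and 2392 to 3152. The neuron sum was 1725 to 2683 at onset and 2070 to 2690 in remission, below relapse in both. The other sums overlapped relapse at onset, with 4952 to 10720 for oligodendrocyte and 7248 to 9454 for astrocyte and ependyma markers. Red blood cell markers summed to 3142 to 7473 at onset, and oligodendrocyte markers in remission, at 5874 to 10930, also overlapped relapse. None of these 4 lists had a member called in relapse against PBS, where 0.00627% of all genes were called higher. For the other lists of this paragraph, the shares of all genes called higher were 1.37% at onset and 0.276% in remission. The part of each of these cell types in the complement differences was not tested.

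The number of members called depended on single pools. Without PBS 1 or without PBS 2, 0 of the 8 members were called at onset, without onset 1 or onset 3 only Cfb was called, without onset 2 the count was 4 and without PBS 3 it was 6. C2 at onset also lost its call when only the PBS and onset pools were fitted (limma, adjusted p = 0.0726). Without both onset 3 and remission 3, Cfb and Serping1 were called. In these fits the onset differences of 7 members remained above 0. In remission, C2 was no longer called without PBS 1 or 2 or without any of the remission pools, and without PBS 3 there were 4 calls. Without remission 1 the call was C1qc in place of C2, and without both onset 3 and remission 3 there were 0 calls.

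**Figure D5:**
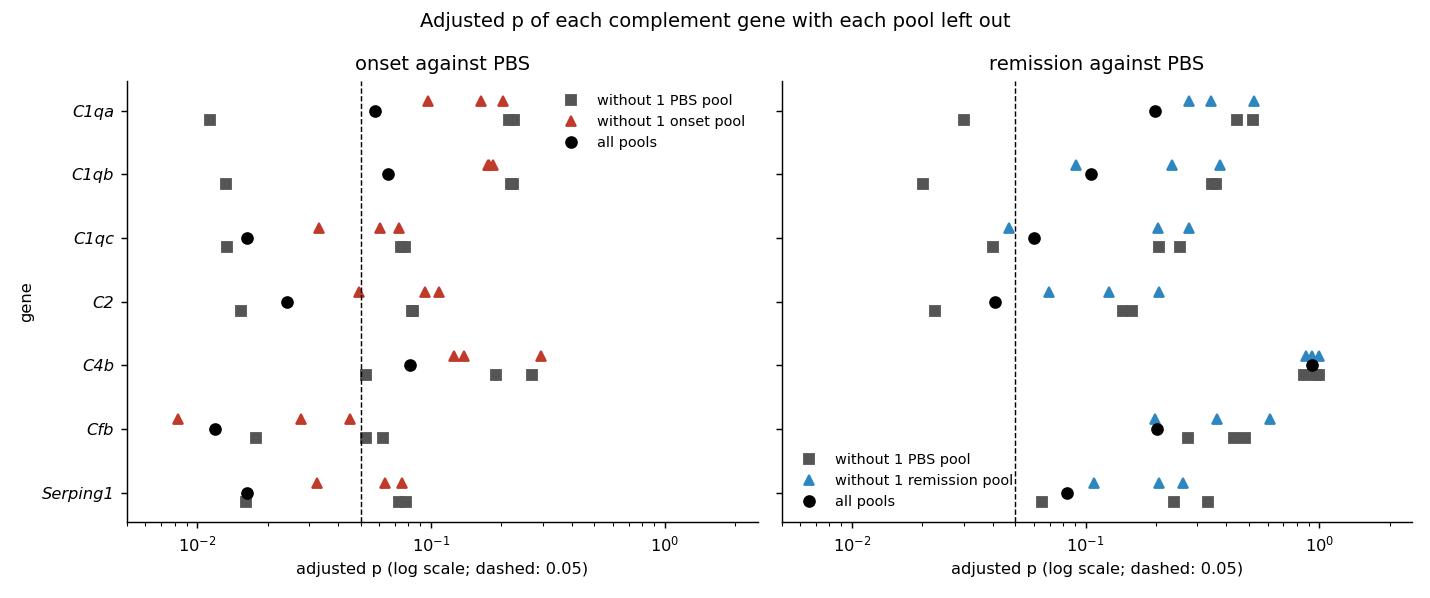
Adjusted p from limma (horizontal axis, log scale, dashed line at 0.05) of 7 members with all pools (circles) and with each pool left out in turn (squares for a PBS pool, triangles for an EAE pool), for onset and remission against PBS. Leaving out PBS 3 moves most members to the left, and leaving out PBS 1 or PBS 2 moves each of the genes called at onset past the line.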

How the data were processed

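CP RNA was amplified, labelled with biotin and hybridised to Illumina MouseRef-8 arrays, and the labels and the study's methods name different amplification kits. BeadStudio was used by the authors to read the arrays. The deposited intensity values are linear and not normalized, and a deposited detection p-value sets each probe against the negative controls. A second table deposited by the authors holds quantile-normalized log2 values, which differed from the log2 values computed here by at most 0.0888. No genome build is given for the array data in the sources used here, and the promoter sequences are of build GRCm38.p6.

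Of 23983 rows, 5 were duplicates and were left out. The log2 intensities of the remaining 23978 probes were quantile-normalized over the 11 arrays in R 4.3.3 and tested with limma 3.58.1, with 4 group means, two-sided, and Benjamini-Hochberg adjustment within each comparison over all probes at 0.05. Symbols came from the platform table, brought up to date through RefSeq for 7 symbols; 20917 probes had 1 gene, 1 had several and 3060 had none. For the 3691 genes with more than 1 probe, the brightest probe on average was used. An array gives no counts, so that the number of pools limits the precision. The members, lists and tests were chosen with earlier results of these data known. The genes named are all members, every other complement gene called and up to 3 per class with the highest signal. The 3 genes most like each member are named as well. Cpn1 is named beyond the 3 of its class, and Cfi was added after its values were seen. Other genes above background in no pool are named only as such, except for Cd46, which is named for its unadjusted p. The procedure was tested on simulated data.

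Deviations of same-numbered pools from their group means correlated at 0.463, 0.329 and 0.26 between remission and onset. In the comparisons with PBS the correlations went in both directions, from -0.586 to 0.465. They were -0.363 and -0.288 between relapse and onset, and -0.414 and -0.306 between relapse and remission. The labels tie no number to a shared batch. Array position and scan date were not used here.

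Results were recomputed with neqc (offset 16), with the deposited log2 values, with median scaling, with probes above background in at least 2 pools only, with 1 probe per gene, with array weights, with a trended and robust eBayes, with only the 2 groups of a comparison in the fit, with the replicate number as a block, and with pools left out.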

Additional observations from a re-analysis of the deposited data

How the results depend on the processing

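At onset against PBS, 4 members were called in the main analysis. Median scaling and array weights each gave 7, leaving out 1 pool at a time gave 0 to 6, and leaving out both onset pool 3 and remission pool 3 gave 2. Array weights rested mostly on PBS 1 (3.82) and onset 3 (2.98), against 0.427 to 1.37 for the other pools. The 2 calls among the other complement genes became 0 with neqc, 1 with the filter on dim probes, 1 with only the 2 groups compared, 5 with array weights and 0 to 3 when 1 pool was left out.

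In remission against PBS, the 1 member called, C2, was not called with neqc, median scaling or only the 2 groups compared, each with 0 calls. Array weights gave 6, a trended and robust eBayes 2, a single probe per gene 2, leaving out 1 pool 0 to 4, and leaving out both pools named above 0. With array weights 2 of the other complement genes were called in remission, 1 of them lower, and Cfb was called lower in relapse than at onset (1 call). The cause was not tested for any of these.

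With the replicate number as a block, 4 members were called at onset, 0 in remission and 0 in relapse; C2 in remission then had an adjusted p of 0.0756 (limma). Among the other complement genes the block gave 3 calls at onset, with Cfi added to C4a and Cd93 (adjusted p = 0.0312). In remission against onset, 0 members were called with and without the block.

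Small differences turned in sign. C4b in remission against PBS went from 0.15 to -0.0129 without both pools and ran from -0.0133 to 0.277 when 1 pool was left out. Cfi went to -0.102 in remission without both pools, and leaving out 1 pool gave -0.102 to 0.392 there and -0.0852 to 0.219 in relapse. For remission against onset, array weights gave 0.0577 for C1qa and 0.0111 for C1qc, median scaling gave -0.0202 for C1qb and -0.0364 for C2, and leaving out 1 pool gave -0.113 to 0.0200 for C1qa, -0.0441 to 0.191 for C1qb and -0.135 to 0.0679 for C1qc. For C1qa in relapse against remission it gave -0.0938 to 0.0397.

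Over all genes, the 219 called higher at onset became 141 with neqc, 759 with array weights and 36 to 229 with 1 pool left out. In remission 44 became 10 with neqc, 27 with median scaling, 15 with only 2 groups, 8 with the block, 205 with array weights, 4 without both pools and 0 to 75 with 1 pool left out.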
